A study of Mus musculus with 2 samples.

Results

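Late neutrophil granule genes encode the proteins that maturing neutrophils pack into their specific and gelatinase granules. The set held 10 genes (Ngp, Camp, Ltf, Lcn2, Mmp8, Mmp9, Chil3, Chil1, Wfdc21 and Hp) of 42462 genes with a name in the annotation. They were listed by symbol, and the list was selected on the levels of these genes in the same 2 libraries, so their levels and the difference between the libraries are given as a description with no test. All 10 symbols were found once in the gene tables.

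The libraries were made from mouse HSC (hematopoietic stem cells), which sit in the bone marrow and can form all blood lineages. Both replicates came from adult male C57BL/6J mice of 5 to 6 weeks, carry the same donor entry in the labels and were prepared from 100 ng of RNA with ribosomal RNA removed. There was no treatment, no mutant allele and no other cell type, so the only comparison between libraries is replicate 1 with replicate 2. The sources used here do not say whether separate mice were used, and the spread between replicates may be technical. Nor do they give the antigens by which the cells were sorted. The labels give a size range of 172 to 1452 for the library of replicate 1 and of 232 to 1000 for that of replicate 2, and this difference in preparation cannot be told apart from the replicate. The tables held 27901074 estimated counts in replicate 1 and 48490188 in replicate 2. Of a list of 12 HSC genes, 11 reached 1 TPM (a level corrected for transcript length and scaled to a constant sum) in both libraries. Among them were Cd34 at 145 and 166 TPM and Kit at 36.4 and 45.1 TPM. The list also holds Flt3, at 57.9 and 53.2 TPM, and Cd48, at 16.1 and 12.4 TPM, which later progenitors express. The count of 11 therefore does not identify the cells as HSC. Slamf1, which encodes CD150, was at 0.42 TPM in replicate 1 and 0.43 in replicate 2.

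Neutrophils make their granules in sequence. Primary granules with myeloperoxidase and serine proteases form in promyelocytes, specific granules with lactoferrin and cathelicidin in myelocytes and metamyelocytes, and gelatinase granules in band cells. The factor C/EBP epsilon is needed for the transcription of many specific granule genes, and granule formation is known from committed granulocyte precursors.

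The stretches before the annotated start sites of 4 genes are shown because C/EBP factors are known regulators of this group and the letters of a C/EBP site can be looked for there. RefSeq promoter sequences on GRCm38.p6 matched 7 of the 10 genes, namely Camp, Chil1, Chil3, Lcn2, Ltf, Mmp8 and Ngp. Each stretch is printed 5′ to 3′ on the gene's strand, from 250 bases before the RefSeq start up to the first base of any annotated exon. Capitals mark matches on either strand to TTGCNNAA, the pattern used here for the letters of a C/EBP site, where N is any base. The pattern is not a palindrome, and none of the matches found is one.

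Ngp, chr9:110419558-110419746, plus strand: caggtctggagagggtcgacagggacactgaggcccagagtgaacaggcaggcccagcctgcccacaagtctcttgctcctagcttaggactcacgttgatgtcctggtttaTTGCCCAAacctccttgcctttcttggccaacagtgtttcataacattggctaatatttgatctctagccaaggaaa

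Ltf, chr9:111019042-111019270, plus strand: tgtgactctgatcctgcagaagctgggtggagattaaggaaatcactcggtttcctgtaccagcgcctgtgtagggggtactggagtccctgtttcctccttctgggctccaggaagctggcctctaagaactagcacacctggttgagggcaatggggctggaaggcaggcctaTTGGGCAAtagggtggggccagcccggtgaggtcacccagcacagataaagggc

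Mmp8, chr9:7558179-7558428, plus strand: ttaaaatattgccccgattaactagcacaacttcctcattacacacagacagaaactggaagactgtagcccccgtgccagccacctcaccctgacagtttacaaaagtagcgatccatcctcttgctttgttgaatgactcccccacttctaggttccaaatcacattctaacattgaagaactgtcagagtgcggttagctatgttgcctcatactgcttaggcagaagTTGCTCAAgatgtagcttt

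Camp, chr9:109849618-109849706, minus strand: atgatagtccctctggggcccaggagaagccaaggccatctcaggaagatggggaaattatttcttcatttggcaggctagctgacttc

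Within 250 bases before the start, TTGCNNAA was found in 4 of the 7 promoters (Lcn2, Ltf, Mmp8 and Ngp), against 9.56% of all 32851 promoters of the same length. In Mmp8 the match starts at position -19 from the start site, in Ltf at -75 and in Ngp at -138, and in Lcn2 the letters TTGCTCAA start at -216. Ngp has another match at -11, which lies inside an annotated exon and is not printed. The Lcn2 window lies within the annotated gene and begins inside an exon, so no stretch of it is printed. The Lcn2 matches, also that to GAGGAA below, are therefore not upstream of every annotated start. Camp, Chil1 and Chil3 had no match in this window. For Camp only 89 bases of the window lie before the first annotated exon base, and the 161 nearest the RefSeq start do not. Bases further upstream of that exon were not scanned. GAGGAA, a core of PU.1 sites, was found in 3 of the 7 (Lcn2, Ltf and Mmp8), against 23.3% of all promoters. AGATAA, which factors of the GATA family bind, was found in 2 of the 7 (Chil3 and Ltf), against 9.99%. TATAAA was found in none of the 7 before the start, against 12.4%. It was found in Chil3 and Mmp8 when 50 bases after the start were included, a window in which 13.6% of all promoters had it. None of these motifs overlapped another in these promoters. A match is a run of letters and was not tested as a binding site.

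All 10 genes were detected at 1 TPM or more in both libraries, and all 10 were higher in replicate 1. The deposited bounds of the libraries, which hold about 95% of the estimate and cover counting error only, did not overlap for any of the 10. Over all 10958 named genes with a mean of at least 1 TPM, 15.5% were higher in replicate 1 with bounds apart. With a difference of over 2-fold as well, 7 of the 10 genes were called higher in replicate 1 and 0 lower. Of all genes tested, 4.18% were called higher and 7.36% lower, and of protein-coding genes alone 2.07% were called higher. At 1.5-fold in place of 2-fold 9 members were called higher, against 7.80% of all genes, and at 3-fold 3 members against 2.20%. Because the genes were listed with these libraries known, nothing is read from the distance between the counts and these shares. Folds between the libraries were taken after adding 0.1 TPM.

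The most abundant transcripts belonged to antimicrobial proteins of specific granules. Ngp, the gene of neutrophilic granule protein, a relative of the cathelicidins (ENSMUSG00000032484.7, plus strand of chromosome 9, 110419747 to 110423012, GRCm38), stood at 241 TPM in replicate 1 and 127 TPM in replicate 2, from 20106 and 15106 counts. The mean was 184 ± 80.3 TPM (SD, n = 2) and the level in replicate 1 was 1.89-fold that in replicate 2. Ngp ranked 101st among 21474 protein-coding genes in replicate 1 and 200th in replicate 2, which made it one of the more abundant messages of both libraries.

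Camp, the cathelicidin gene, whose product is cut to an antimicrobial peptide (ENSMUSG00000038357.9, minus strand of chromosome 9, 109847379 to 109849617), stood at 172 TPM in replicate 1 and 66.4 TPM in replicate 2. This was a mean of 119 ± 74.5 TPM (SD, n = 2) and a 2.59-fold difference. Camp was thus second to Ngp in both libraries, with a wider gap to it in replicate 2.

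Ltf, the gene of the iron-binding protein lactoferrin (ENSMUSG00000032496.3, plus strand of chromosome 9, 111019271 to 111042767), stood at 94.3 TPM in replicate 1 and 36.7 TPM in replicate 2. The mean was 65.5 ± 40.7 TPM (SD, n = 2) and the difference 2.57-fold, close to that of Camp. Ltf gave the largest number of counts of the set in replicate 1, 20767, and 11893 in replicate 2, and its transcript is the longest among the members with 1 annotated form.

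Lcn2, the gene of lipocalin 2, which binds bacterial siderophores (ENSMUSG00000026822.10, minus strand of chromosome 2, 32384633 to 32388252), stood at 44.7 TPM in replicate 1 and 18.7 TPM in replicate 2. Its mean was 31.7 ± 18.4 TPM (SD, n = 2) and its difference 2.38-fold. Hp, the gene of the hemoglobin-binding protein haptoglobin, which neutrophils store in specific granules (ENSMUSG00000031722.9, minus strand of chromosome 8, 109575128 to 109579172), stood at 17.8 and 5.51 TPM in the same order, a 3.196-fold difference. Its mean was 11.7 ± 8.71 TPM (SD, n = 2). For both genes replicate 1 lay clear of replicate 2, and Hp was further apart than Lcn2.

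The chitinase-like genes encode lectins that lack chitinase activity. Chil3, the gene of Ym1 (ENSMUSG00000040809.10, minus strand of chromosome 3, 106147554 to 106167564), stood at 71.6 TPM in replicate 1 and 21.7 TPM in replicate 2, a mean of 46.6 ± 35.3 TPM (SD, n = 2) and a 3.29-fold difference. Its paralog Chil1 (ENSMUSG00000064246.6, plus strand of chromosome 1, 134182176 to 134190181) was lower, at 8.96 and 3.21 TPM. The mean of Chil1 was 6.09 ± 4.07 TPM (SD, n = 2) and its difference 2.74-fold. Chil3 exceeded Chil1 in each library without overlap of the bounds.

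Wfdc21, which encodes a small secreted protein with a WAP four-disulfide core (ENSMUSG00000051748.2, plus strand of chromosome 11, 83746940 to 83752642), showed the widest difference of the set. It stood at 35.6 TPM in replicate 1 and 9.11 TPM in replicate 2, from 746 and 229 counts, with a mean of 22.4 ± 18.7 TPM (SD, n = 2). The difference was 3.88-fold, and the bounds allowed 3.17 to 4.74. Wfdc21 is also the member with the shortest effective length, 243 nucleotides in replicate 1 and 194 in replicate 2, so its level depends most on the correction for length.

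The matrix metalloproteinase genes showed the narrowest difference along with Ngp. Mmp8, the gene of neutrophil collagenase, a specific granule protein (ENSMUSG00000005800.2, plus strand of chromosome 9, 7558456 to 7568485), stood at 12.9 TPM in replicate 1 and 10.01 TPM in replicate 2. Its mean was 11.5 ± 2.06 TPM (SD, n = 2) and its difference 1.29-fold, with bounds of 1.19 to 1.38. In counts Mmp8 was the one member with more in replicate 2, 2869 against 2523, in a library that was deeper throughout. Mmp9, the gene of gelatinase B, which gives the gelatinase granules their name (ENSMUSG00000017737.2, plus strand of chromosome 2, 164940780 to 164955850), stood at 6.07 and 3.13 TPM. The mean of Mmp9 was 4.60 ± 2.08 TPM (SD, n = 2), the lowest of the set, and its difference 1.91-fold. The bounds of Mmp8 did not reach those of any other member's fold, the next being Mmp9 with 1.57 to 2.28.

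**Figure D1:**
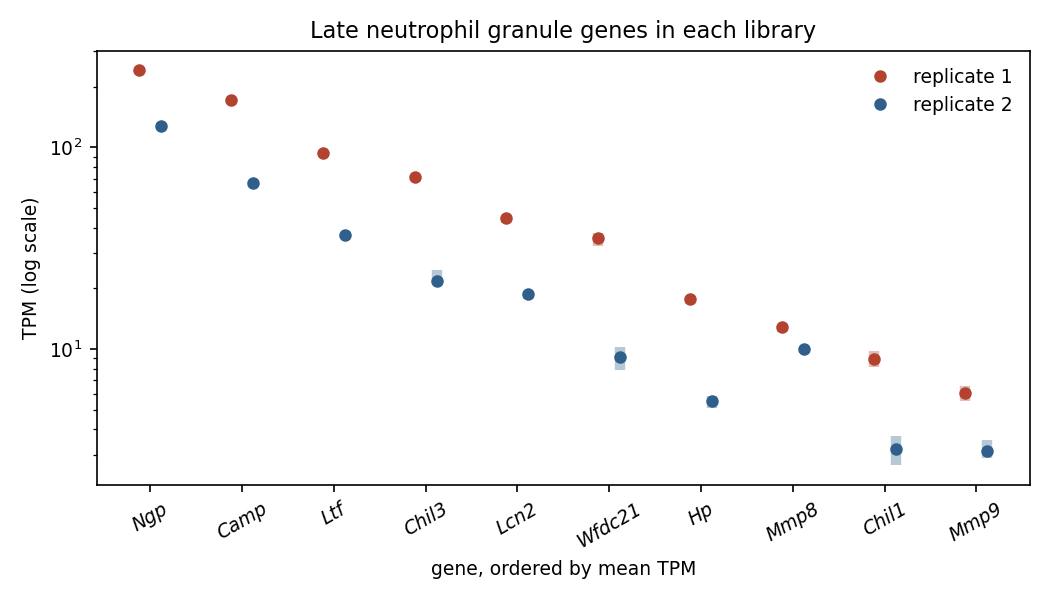
TPM of the 10 late granule genes (log scale) in replicate 1 (red) and replicate 2 (blue), in order of the mean, with the deposited bounds of about 95% as pale bars that are mostly shorter than the points. Every red point lies above its blue partner, from 241 against 127 TPM for Ngp to 6.07 against 3.13 TPM for Mmp9, and the pair is closest for Mmp8.

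The levels spanned a 40.0-fold range of means from Ngp to Mmp9. In order of mean TPM the genes were Ngp, Camp, Ltf, Chil3, Lcn2, Wfdc21, Hp, Mmp8, Chil1 and Mmp9. Of the 9 pairs of neighbours in this order 7 kept it in both libraries with bounds that did not overlap. Hp exceeded Mmp8 1.38-fold in replicate 1 but stood at 0.55 of its level in replicate 2, with bounds apart in opposite directions. Chil1 exceeded Mmp9 1.48-fold in replicate 1, and in replicate 2 their bounds overlapped at a ratio of 1.03. Of all 45 pairs of members 42 kept their order in this sense. In replicate 2 alone Mmp8 moved up to sixth place, ahead of Wfdc21 and Hp. The posterior SD of the count was 0 for all 10 genes in both libraries, and no other annotated gene overlaps any of them on either strand. For Ngp and Ltf in replicate 1 the TPM lay just above the deposited upper bound, which was 239.7 for Ngp and 93.9 for Ltf. The posterior mean TPM, around which the bounds are set, was 236 for Ngp and 92.6 for Ltf.

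Together the 10 genes summed to 705 TPM in replicate 1 and 302 TPM in replicate 2, a 2.34-fold difference. They held 0.432% of protein-coding TPM in replicate 1 and 0.149% in replicate 2, and 0.232% and 0.0835% of all counts. The make-up of this sum was similar in outline. Ngp, Camp and Ltf took 71.9% of it in replicate 1 and 76.3% in replicate 2. The share of Ngp was 34.2% in replicate 1 and 42.2% in replicate 2, that of Chil3 10.2% and 7.19%, and that of Mmp8 1.83% and 3.32%. In counts, which favour long transcripts, Ltf held 32.0% in replicate 1 and 29.4% in replicate 2, and Camp only 9.31% and 7.56%. In bulk RNA a larger number of cells of a type and more RNA per cell cannot be told apart, here and in every difference given below.

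**Figure D2:**
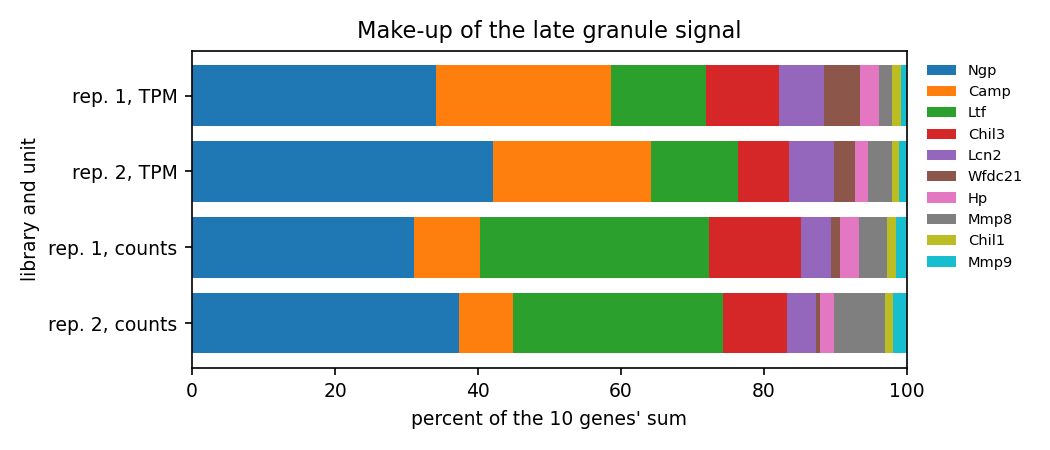
Share of each late granule gene in the sum over the 10 genes, as percent of TPM and of estimated counts, for each replicate. Ngp takes 34.2% of TPM in replicate 1 and 42.2% in replicate 2, and Ltf replaces Camp as the other large part when counts are used.

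The log2 ratio of replicate 1 over replicate 2 ran from 0.36 for Mmp8 to 1.96 for Wfdc21, with a median over the 10 genes of 1.36. The ratio of all 10958 genes tested was not centred on 0 but had a median of -0.27, with the middle 80% between -0.89 and 0.52. TPM has a constant sum, of which protein-coding genes held 16.3% in replicate 1 and 20.3% in replicate 2. With TPM rescaled over protein-coding genes the median of all genes was 0.04, and with CPM (counts scaled to the library total, not divided by length) it was -0.03. Relative to the median of all genes the members' median was 1.64 in deposited TPM, 1.65 in rescaled TPM and 1.61 in CPM. In each of 9 scalings 9 of the 10 genes were over 2-fold higher in replicate 1 relative to that median, and Mmp8 was the exception. On the deposited scale the 3 genes short of 2-fold were Ngp, Mmp8 and Mmp9. Rescaled over protein-coding genes Ngp stood at a log2 ratio of 1.24 and Mmp9 at 1.27, and 9 members were called higher, against 11.5% of all genes in that scaling, with 5.87% lower. There calls over all genes also turned from mostly lower to mostly higher, with 66.3% of calls higher in replicate 1 in place of 36.2%.

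**Figure D3:**
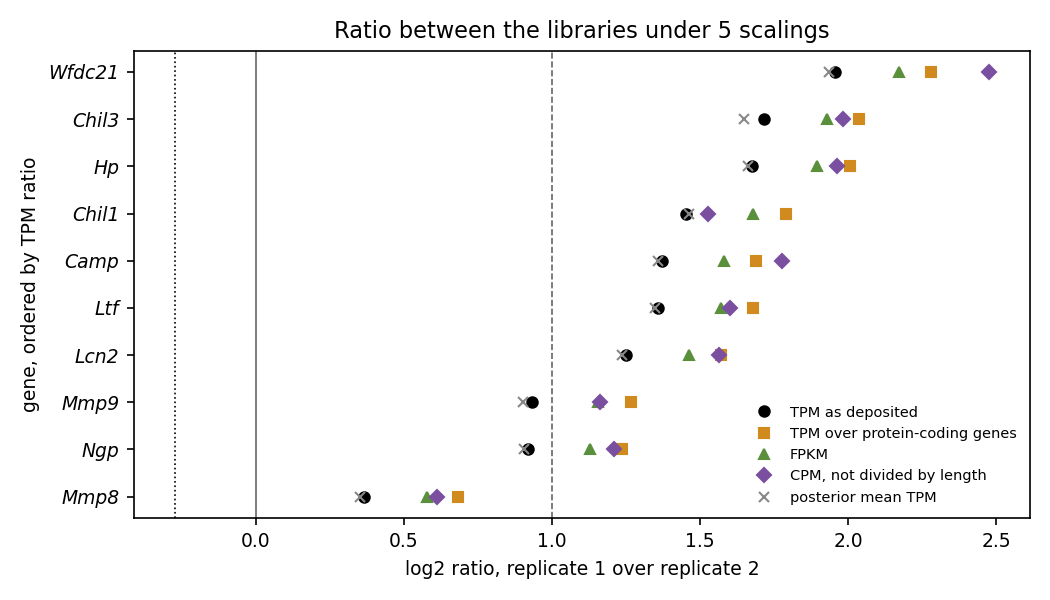
Log2 ratio of replicate 1 over replicate 2 for each gene (horizontal axis) under 5 scalings (symbols), with a solid line at 0, a dashed line at 2-fold and a dotted line at the median of all genes in deposited TPM, -0.27. Mmp8 stays left of the dashed line in each of these scalings and Wfdc21 lies furthest right, between 1.94 and 2.48.

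**Figure D4:**
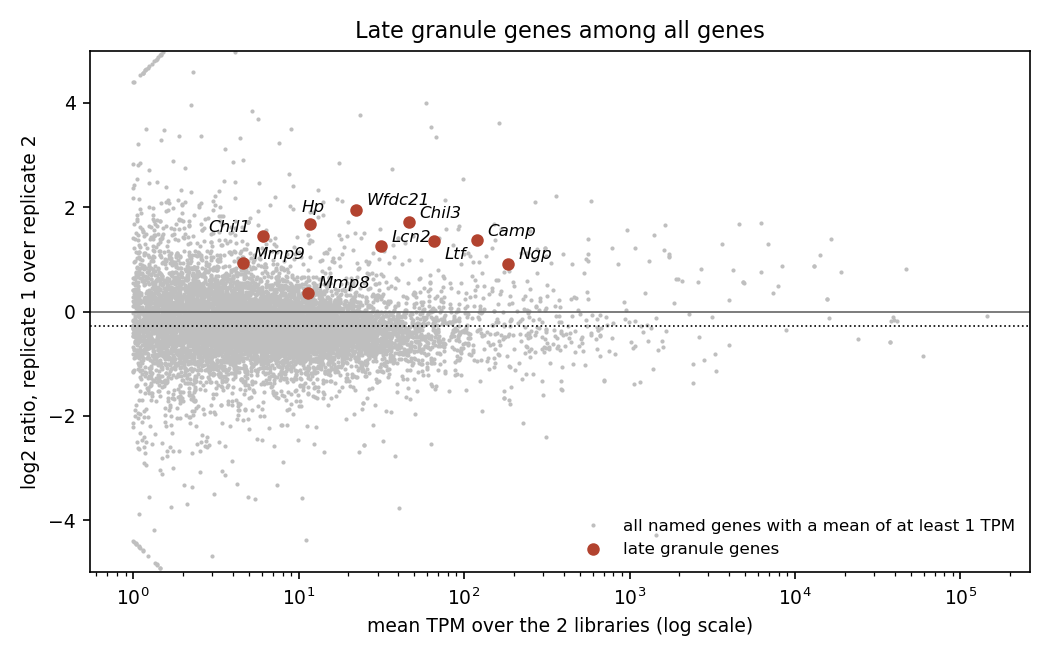
Log2 ratio of replicate 1 over replicate 2 against mean TPM (log scale) for all 10958 genes tested (grey) and the 10 late granule genes (red), with a dotted line at the median of all genes; 139 grey points lie beyond the vertical axis. The 10 genes lie above the solid line at 0 over the whole range of levels, from a mean of 4.60 TPM (Mmp9) to 184 TPM (Ngp).

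Camp, Hp, Ltf, Mmp8, Ngp and Wfdc21 had 1 annotated transcript each, so their single form was set by the annotation and not by the reads. Chil3 had 99.7% of its TPM in 1 protein-coding transcript in replicate 1 and 100% in replicate 2, and Lcn2 had 98.3% and 96.5%. Mmp9 was split: the protein-coding form of 13 exons held 47.3% in replicate 1 and 49.8% in replicate 2, and a processed transcript of 2 exons without a coding sequence held 52.7% and 50.3%. The protein-coding form alone stood at 2.87 and 1.56 TPM, below the 6.07 and 3.13 TPM of the gene.

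For Chil1 the estimated mix of forms was not the same in the libraries. The main protein-coding form (ENSMUST00000082060.5, 10 exons) held 52.0% in replicate 1 and 68.2% in replicate 2, at 4.66 and 2.19 TPM. A retained-intron form (ENSMUST00000134812.1, 2 exons) held 41.0% in replicate 1 and 11.1% in replicate 2, at 3.67 and 0.36 TPM, with bounds of 2.87 to 4.45 and 0.0005 to 0.623. The bounds of the protein-coding form, 3.59 to 4.82 and 1.54 to 2.48, did not overlap either. Another retained-intron form (ENSMUST00000139254.3, 6 exons) was at 0 TPM in replicate 1 and at 0.66 TPM in replicate 2, where it held 20.7%, and its bounds overlapped between the libraries. All retained-intron forms of Chil1 together held 40.95% in replicate 1 and 31.8% in replicate 2. Reads of the shared exons are divided between these forms by the estimate, so the split is less certain than the gene's count.

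Camp, Ngp and Ltf lie in this order on chromosome 9 within 1195 kb, from 109847379 to 111042767. Camp and Ngp are 570 kb apart, and Ngp and Ltf 596 kb. Between them lie 28 other protein-coding genes, of which 9 had a mean of at least 1 TPM. Of these 9, 0 were called apart between the libraries in either direction. This is near the share of all genes, of which 4.18% were called higher and 7.36% lower. The log2 ratios of the 9 ran from -0.73 for Dhx30, which encodes an RNA helicase, to 0.33 for Nbeal2, which is needed for platelet alpha granules. The ratios of Ngp, Camp and Ltf, 0.92, 1.37 and 1.36, lay above all 9. The neighbours were looked up after the values of the members had been seen.

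Among their gene families, matched by symbol after the members were known, the members were mostly the leading expressed genes. Lcn2 was the only one of 10 lipocalin genes named Lcn with any count, the other 9 having none in either library. Of 22 Mmp genes 2, Mmp8 and Mmp9, reached 1 TPM in both libraries. The next was Mmp11 at 2.92 TPM in replicate 1 and 0.17 TPM in replicate 2, from 73 and 44 counts, and 9 Mmp genes had no count. Chil3 and Chil1 together held 89.0% of the TPM of 10 chitinase-family genes, ahead of Chid1 at 2.65 and 5.35 TPM. Of 20 genes of the WAP four-disulfide family, Wfdc21 was highest and Wfdc17 next, at 13.04 and 11.1 TPM, a log2 ratio of 0.23 against 1.96 for Wfdc21. Trf, the transferrin gene related to Ltf, stood at 15.5 and 14.0 TPM. Chil4, a near-identical copy of Chil3, had no count in either library, and the posterior SD of the Chil3 count was 0 in both.

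Other genes of specific and gelatinase granules and their membranes, a list of 20, were in part detected. Of these 13 reached 1 TPM in both libraries. Of 16 tested 6 were called higher in replicate 1 and 0 lower, against 4.18% and 7.36% of all genes. The median log2 ratio of the 16 was 0.88. The highest was Anxa1, the annexin A1 gene, at 119 TPM in replicate 1 and 109.5 TPM in replicate 2. Cybb and Cyba, the genes of the membrane subunits of the phagocyte oxidase, stood at 17.5 and 10.1 TPM and at 13.9 and 7.33 TPM. Cd177, a neutrophil surface glycoprotein gene, stood at 16.97 and 6.45 TPM, 2.61-fold apart, and Fpr1, a formyl peptide receptor gene, at 1.95 and 0.56 TPM. Orm1, which encodes an acute phase protein, was furthest apart, from 92 and 12 counts, and Hpx had no count.

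Other neutrophil genes were in part higher in replicate 1 as well. Of a list of 20, 14 reached 1 TPM in both libraries. Of 16 tested 8 were called higher in replicate 1 and 0 lower, against 4.18% and 7.36% of all genes. The median log2 ratio of the 16 was 1.11. The summed level of the list was 2622 TPM in replicate 1 and 976 TPM in replicate 2. S100a8, the calprotectin subunit gene, stood at 1504 and 645 TPM, 2.33-fold apart, and its partner S100a9 at 952 and 218 TPM, 4.37-fold apart. Retnlg, a resistin-like gene, stood at 36.5 and 24.98 TPM. Ly6g, the antigen by which mouse neutrophils are sorted and a gene chosen here after its values were seen, stood at 5.74 and 2.83 TPM from 317 and 256 counts. Steap4 had no count in either library, and Stfa2l1 and Mrgpra2b, a member of a multigene receptor family, had none in replicate 2 against 14 and 222 in replicate 1. How far neutrophil RNA in the libraries accounts for the levels of the granule genes was not tested.

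Set against S100a8 in the same library, the level of the granule genes was between 0.553 and 1.68 times as high in replicate 1 as in replicate 2. Lcn2 stood at 0.0297 of the S100a8 level in replicate 1 and 0.029 in replicate 2, Camp at 0.114 and 0.103, and Ltf at 0.0627 and 0.0569. The proportion was 1.68 times as high in replicate 1 for Wfdc21, 1.41 times for Chil3 and 1.39 times for Hp. Mmp8 was at the lower end, and Ngp stood at 0.811 times. These proportions depend on the reference gene. S100a9 was 4.37-fold apart, more than any member, the widest being Wfdc21 at 3.88-fold. Set against S100a9, every member would thus be lower in replicate 1 than in replicate 2.

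Primary granule genes, which are made earlier in granulocyte development, were mixed. Of 12 genes 11 reached 1 TPM in both libraries. Of 11 tested 4 were called higher in replicate 1 and 0 lower, against 4.18% and 7.36% of all genes. The median log2 ratio of the 11 was 0.54. The summed level of the list was 487 TPM in replicate 1 and 549.9 TPM in replicate 2, of which Srgn, the serglycin gene, held 223 and 367 TPM. Prtn3, the proteinase 3 gene, stood at 22.9 and 5.24 TPM, 4.31-fold apart, and Elane, the neutrophil elastase gene, at 25.8 and 9.29 TPM, 2.76-fold apart. Mpo, the myeloperoxidase gene, stood at 92.2 and 58.9 TPM and Ctsg, the cathepsin G gene, at 35.5 and 28.7 TPM, and neither was called apart. Bpi had no count. Ngp exceeded Mpo 2.61-fold in replicate 1 and 2.16-fold in replicate 2, so the most abundant late gene stood above the main primary granule gene in both libraries, whereas Ltf was 1.02-fold and 0.623-fold the level of Mpo.

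Factors and receptors of granulocyte maturation were looked up as well. Of 14 genes 11 were tested and 0 were called in either direction. This is near the share of all genes, of which 4.18% were called higher and 7.36% lower. The median log2 ratio of the 11 was -0.21, against -0.27 over all genes. Cebpe, which encodes C/EBP epsilon, stood at 4.12 TPM in replicate 1 and 2.34 TPM in replicate 2 from 372 and 302 counts, a 1.73-fold difference with bounds apart that was over 2-fold with TPM over protein-coding genes. Gfi1, a repressor needed for neutrophil formation, stood at 4.96 and 3.57 TPM. Cebpa, the factor of early granulocyte commitment, stood at 1.53 and 1.78 TPM, Cebpb at 2.51 and 4.11, Cebpd at 2.59 and 4.12, and Spi1, the gene of PU.1, at 10.25 and 11.95 TPM. Csf3r, which the neutrophil list also holds and which encodes the G-CSF receptor, stood at 13.6 and 15.03 TPM, and its ligand gene Csf3 had no count. Ngp exceeded Cebpe 58.4-fold in replicate 1 and 54.4-fold in replicate 2, and Camp exceeded it 41.7-fold and 28.4-fold.

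Lists of other cell types were read beside these. Over all genes tested 4.18% were called higher in replicate 1 and 7.36% lower, so 0 calls in a short list is near the general share. Of 12 HSC genes 0 of 11 tested were called, with a median log2 ratio of -0.01. Monocyte and macrophage genes had 4 of 7 tested called higher in replicate 1 and 0 lower, and a median of 1.11, with Lyz2 at 334 and 153 TPM and Ly6c2 at 24.9 and 11.5 TPM. Their summed level was 379 and 178 TPM, and C1qa had 13 counts in replicate 1 and 0 in replicate 2. Eosinophil and basophil genes had 4 of 7 called higher, led by Prg2 at 38.7 and 17.7 TPM and Mcpt8 at 10.9 and 2.56 TPM, and 1 lower, Epx, whose ratio turned to higher in replicate 1 in CPM (log2 0.98). Erythroid genes had 0 of 8 called higher and 4 lower in replicate 1, with a median of -1.03, among them Car1 at 9.74 and 66.9 TPM and Klf1 at 0.66 and 6.25 TPM. Megakaryocyte genes had 0 of 4 called, T cell genes 0 of 3 and B cell genes 0 of 1, with Cd8a and Trac at 0 counts in both libraries. Proliferation genes had 0 of 8 called higher and 1 lower, Plk1, at 2.89 and 7.52 TPM. The granule genes were thus higher in the library in which the neutrophil, monocyte, and eosinophil and basophil lists had higher medians. The erythroid list had a lower median there. Primary granule genes were mixed, and among the erythroid genes Hbb-bs went the other way, at 4.59 and 3.23 TPM. The part of other cells' RNA in the result was not tested.

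**Figure D5:**
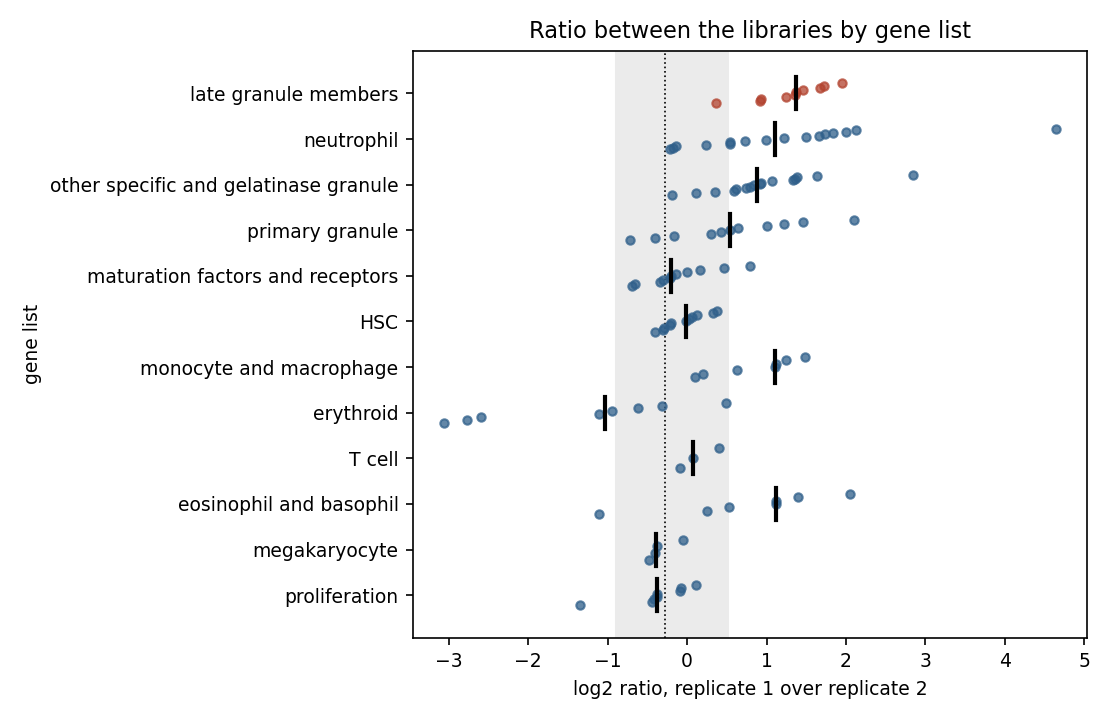
Log2 ratio of replicate 1 over replicate 2 for the genes tested in each list with at least 3 of them (points), with list medians (black bars), the median of all genes (dotted line, -0.27) and the middle 80% of all genes (grey, -0.89 to 0.52). The late granule genes (red, median 1.36) lie to the right together with the medians of the neutrophil, monocyte, and eosinophil and basophil lists. The erythroid median (-1.03) lies to the left.

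The protein-coding genes outside the set whose levels in the 2 libraries lay nearest to those of Ngp were Tmsb4x (252 and 132 TPM), Rps15a (237 and 138.5 TPM), mt-Co3, Rps27a and Rps19, at distances of 0.0831 to 0.346 on the log2 scale. Among the nearest to Camp were Rpl37a (149 and 77.3 TPM), Hist1h4h, Hist2h2aa2 and Rpl10a, at 0.302 to 0.647. Over only 2 libraries such nearness means like level and like ratio and nothing more.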

How the data were processed

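Total RNA of mouse HSC was sequenced in 2 replicate libraries. The authors deposited a gene and a transcript table for each, for mm10 and GENCODE M4, as the sample text files state. Aligner and counter were not given in the sources used here, and the deposited columns, per the file headers, hold expected counts, TPM, FPKM, posterior mean TPM, the posterior SD of the count and interval bounds on the TPM scale (both read here as a score), and for transcripts the isoform percent. The level of the bounds is not in the headers, and their width in genes with 1 transcript implied 95.0% in both libraries. Identifiers without version were matched to GENCODE M21 for 42462 of 43346 genes. A count of 0 allows up to 3 counts, or 0.108 CPM in replicate 1 and 0.0619 in replicate 2, for counting error only.

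A call required a mean TPM of 1 or more, a ratio over 2-fold after adding 0.1 TPM, and bounds that did not overlap, over all named genes. One group of 2 libraries allows no test between conditions. The members and lists were chosen with earlier results of these data known. Named genes were all members, the factors and receptors, and of each other list the highest, the lowest and those furthest apart. The lists covered neutrophil, other specific and gelatinase granule, primary granule, maturation factors and receptors, HSC, monocyte and macrophage, erythroid, B cell, T cell, eosinophil and basophil, megakaryocyte and proliferation genes. Alternative scalings used edgeR 4.0.16 (TMM) and DESeq2 1.42.0 size factors on rounded expected counts of genes with at least 10 in both libraries, and Python 3.11.15 for the rest. The calling rule was checked on simulated counts with counting error only. The check does not cover variation between replicates or a shift of the overall ratio. A few genes that the naming rule takes are not reported here.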

Additional observations from a re-analysis of the deposited data

How the results depend on the processing

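The members' median log2 ratio, 1.36 in deposited TPM, kept its sign in every scaling run. It was 1.29 with 1 TPM added, 1.58 in both FPKM (1.576) and CPM (1.582), 1.59 with TMM (1.589) or DESeq2 size factors (1.588), 1.68 with TPM over protein-coding genes and 1.64 relative to the median of all genes, the last chosen after seeing the data. Of the 10 genes 7 were called higher in replicate 1, against 4.18% of all genes. It was 3 at 3-fold (Chil3, Wfdc21 and Hp), against 2.20% of all genes, and 9 at 1.5-fold, against 7.80%. With TPM over protein-coding genes it was 9, against 11.5% of the 14029 genes tested there. More genes reached the mean of 1 in that scaling than the 10958 in deposited TPM, in several lists too. In deposited TPM 2.07% of protein-coding genes alone were called higher. The list counts under protein-coding TPM, also added later and to be read against the same 11.5% higher and 5.87% lower of all genes, were 13 of 19 for neutrophil genes in place of 8 of 16, 11 of 18 for other granule genes in place of 6 of 16 and 1 of 12 for factors and receptors in place of 0 of 11. Monocyte genes had 6 of 11 higher and 1 lower in place of 4 of 7 and 0, eosinophil and basophil genes 5 of 8 and 0 in place of 4 of 7 and 1, and megakaryocyte genes 2 of 7 lower in place of 0 of 4, and calls of the other lists kept their number. No member's ratio changed sign. The median level of the 10 genes was 27.3 TPM and lay between 14.4 and 40.1 in single libraries; in FPKM, another unit, it was 81.3. In CPM 3 of the 10 genes kept their place in the order of levels, since long transcripts gain, and in replicate 2 alone 7 did. Member promoters with TATAAA were 2 when 50 bases after the start were included, in place of 0. No paired analysis was possible because there is 1 group, with no contrast between conditions. With 2 libraries the spread between replicates rests on a single difference. Depth did not limit the gene levels, the lowest count of a member being 229, but it limits the minor isoforms.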
